A study of Mus musculus with 2 samples.

Results

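The genes described here were the 10 that encode the T cell receptor (TCR) complex, its coreceptor and the first kinases of the signal: Trac, Trbc1 and Trbc2, Cd3d, Cd3e, Cd3g and Cd247, Cd4, Lck and Zap70. They were chosen by symbol from the 32285 features of the count tables, and the rule itself uses no measured value. All 10 were found in both libraries, and all 10 passed the minimum of 200 unique molecular identifiers (UMIs, each marking 1 captured transcript molecule) in every comparison between T cell states. Their levels were read in the 8053 WT and 13767 KO barcodes (droplets, each meant to hold 1 cell) with 300 or more genes and a mitochondrial share of up to 5%.

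The TCR recognizes peptides held by MHC molecules through an alpha and a beta chain, which have short tails and cannot signal alone. The CD3 chains and the zeta chain carry the tyrosine motifs that the kinase Lck phosphorylates, Lck being brought to the receptor by the coreceptor CD4. The kinase Zap70 then docks on the phosphorylated chains and passes the signal on to the adaptor Lat. Regulatory T cells (Tregs) depend on TCR signals both for their selection in the thymus and for their effector state in the periphery.

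The study sorted YFP+7AAD- spleen cells from 7-day-old C57BL/6J mice for droplet single-cell RNA-Seq, 1 library per genotype, to ask what loss of the zinc finger protein Zfp335 does to Tregs. WT mice carried Foxp3-Cre with intact Zfp335, and KO mice were Zfp335fl/flFoxp3-Cre, so both groups expressed a YFP-Cre fusion from the Foxp3 locus, which limits deletion to cells that have switched Foxp3 on. Red cells had been lysed, and the number of pooled mice was not given. The methods of the study also name a CD4+ gate, which the sample labels do not, so a sort on CD4 protein may touch the Cd4 values. With 1 library per genotype no difference between genotypes could be tested: genotype, animal, sort and library cannot be told apart, and all intervals given below are 95% intervals that cover counting error only.

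Zfp335 itself was at 8.03 CPM (7.29 to 8.82) in WT and 1.01 CPM (0.764 to 1.3) in KO, where CPM (the counts-per-million scale) sets the UMIs of a gene, summed over barcodes, against all UMIs of those barcodes. Kept barcodes were deeper in WT, with a median of 5061 UMIs against 2713 in KO, and 29 barcode sequences were kept in both libraries. Clusters built without the 10 genes were named from markers listed for each state and lineage, and since the subset names of the study were not rebuilt, differences from it may come from the names. T-lineage barcodes numbered 7478 in WT and 13043 in KO. They comprised 2852 WT and 4927 KO resting Treg-like barcodes, 2219 and 107 effector Treg-like, 683 and 1261 activated Treg-like, and 639 and 1096 cycling T-like. A further 1085 WT and 5652 KO barcodes lay in 4 shallow T clusters that stayed unnamed, led by globin genes, by neutrophil or myeloid granule genes, or by histone genes and AY036118. Some state names rest on few leading markers. Of the listed state markers, Satb1 alone was among the leading genes of the main resting cluster, and Nefh alone among those of the activated cluster. The other resting cluster, led by interferon-induced genes, had none and was named by the mean of the markers. Foxp3, which defines the sorted cells, was at 40.6 CPM (38.8 to 42.4) in WT and 44.3 CPM (42.6 to 46.2) in KO T-lineage barcodes.

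The members lie on 5 chromosomes of GRCm38, the build of the deposited counts (mm10). Cd3g (chr9:44969572-44980431, minus strand) and Cd3d (chr9:44981769-44987052, plus strand) are transcribed away from each other from starts 1338 bases apart, and Cd3e follows at chr9:44998735-45009663 on the minus strand. The upstream 250 bases of the RefSeq promoter window of each gene are shown because these 3 genes are neighbours whose levels are compared below. Each window is set on a start of its own, which for Cd3d and Cd3e lies inside the gene bounds given above, so those windows take in the first bases of the annotated gene, whereas that of Cd3g lies before it. They lie at chr9:44980432-44980681 for Cd3g (minus strand), chr9:44981536-44981785 for Cd3d (plus strand) and chr9:45009612-45009861 for Cd3e (minus strand). Capitals mark CAGGTG or its reverse CACCTG, a form of the E-box that E proteins recognize in lymphocytes.
Cd3g: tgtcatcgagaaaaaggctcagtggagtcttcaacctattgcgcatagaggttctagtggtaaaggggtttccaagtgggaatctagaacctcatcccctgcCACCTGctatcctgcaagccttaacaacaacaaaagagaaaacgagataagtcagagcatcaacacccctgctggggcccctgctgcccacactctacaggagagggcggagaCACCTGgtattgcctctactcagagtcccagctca
Cd3d: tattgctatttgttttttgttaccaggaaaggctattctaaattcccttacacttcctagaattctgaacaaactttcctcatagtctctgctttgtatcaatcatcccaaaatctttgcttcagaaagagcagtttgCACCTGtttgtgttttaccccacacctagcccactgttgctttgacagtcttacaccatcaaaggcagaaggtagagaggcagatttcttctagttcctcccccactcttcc
Cd3e: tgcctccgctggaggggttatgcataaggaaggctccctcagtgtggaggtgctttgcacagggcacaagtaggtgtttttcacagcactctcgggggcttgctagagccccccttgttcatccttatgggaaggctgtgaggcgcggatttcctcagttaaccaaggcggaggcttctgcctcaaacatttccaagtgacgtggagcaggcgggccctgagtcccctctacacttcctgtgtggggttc
The hexamer occurred 2 times in the window of Cd3g, 1 time in that of Cd3d and not in that of Cd3e, and 17.2% of all 32851 promoter windows of this length held it on either strand. The hexamer TGTGGT, the core of the RUNX motif, was in none of these 3 windows against 14% of all windows, and TATAAA was in none of them against 12.4%. The motifs were chosen after the sequences had been seen, and RefSeq windows were used for 6 of the 10 members.

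Trac lies at chr14:54220521-54224198, Trbc1 at chr6:41538219-41539665 and Trbc2 at chr6:41546730-41548181, all on the plus strand. A mature beta chain uses either Trbc1 or Trbc2, and the pair are near copies, so how well reads can tell them apart bears on every value given for them. Over 518 coding bases the GENCODE vM21 transcripts differed at 23 positions (95.6% identity). The last 120 coding bases of the spliced transcripts (between chr6:41539234-41539662 for Trbc1 and chr6:41547777-41548178 for Trbc2) hold 19 of these differences, in capitals below.
Trbc1: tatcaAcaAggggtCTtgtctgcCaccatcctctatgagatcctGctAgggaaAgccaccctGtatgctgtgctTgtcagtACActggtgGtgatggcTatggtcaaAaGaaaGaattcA
Trbc2: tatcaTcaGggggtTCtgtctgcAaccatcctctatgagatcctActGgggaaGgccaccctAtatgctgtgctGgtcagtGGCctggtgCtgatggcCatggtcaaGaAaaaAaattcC
Beyond the coding part, the 3' ends of the transcripts matched in 55.1% of aligned columns. Of all 90-base windows of the Trbc1 transcript, 31.3% also occurred unchanged in Trbc2, and 33.7% of Trbc2 windows occurred in Trbc1. A 3' assay favours the divergent end, but where the reads fell was not examined. The 3' parts are short, at 219 and 174 bases with the stop codon, and the longest identical coding run is 259 bases. Reads from the identical part cannot be assigned to 1 gene, so the split between Trbc1 and Trbc2 is uncertain to that extent. The remaining members are Cd247 (chr1:165779952-165871153, plus strand), Zap70 (chr1:36761798-36782821, plus strand), Lck (chr4:129548344-129573641, minus strand) and Cd4 (chr6:124864693-124888247, minus strand). In GENCODE vM21, exons of Cd247 overlap Gm16565 on the same strand and Pou2f1 on the other, Lck holds Mir8119, and Cd3e overlaps the antisense gene Gm48719.

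Together the 10 genes marked the T lineage in both libraries. Their summed level in resting Treg-like barcodes was 7803 CPM (7752 to 7854) in WT and 7984 CPM (7946 to 8023) in KO. In effector Treg-like barcodes it was 8311 CPM in WT and 7368 CPM in KO, in activated ones 6355 and 5726 CPM, and in cycling T-like barcodes 6254 and 6595 CPM. The resting state thus stood above the activated and cycling states in both libraries, whereas the effector state stood above resting in WT and below it in KO, where it rests on 107 barcodes. In the unnamed T clusters, with a median of 683 UMIs per barcode in WT and 1366 in KO, it was 6244 CPM (6086 to 6404) and 6350 CPM (6298 to 6401). The 2 resting clusters gave like sums, with 7803 CPM in WT and 8026 CPM in KO in the main one and 7802 and 7792 CPM in the one led by interferon-induced genes (67 WT and 787 KO barcodes).

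**Figure D1:**
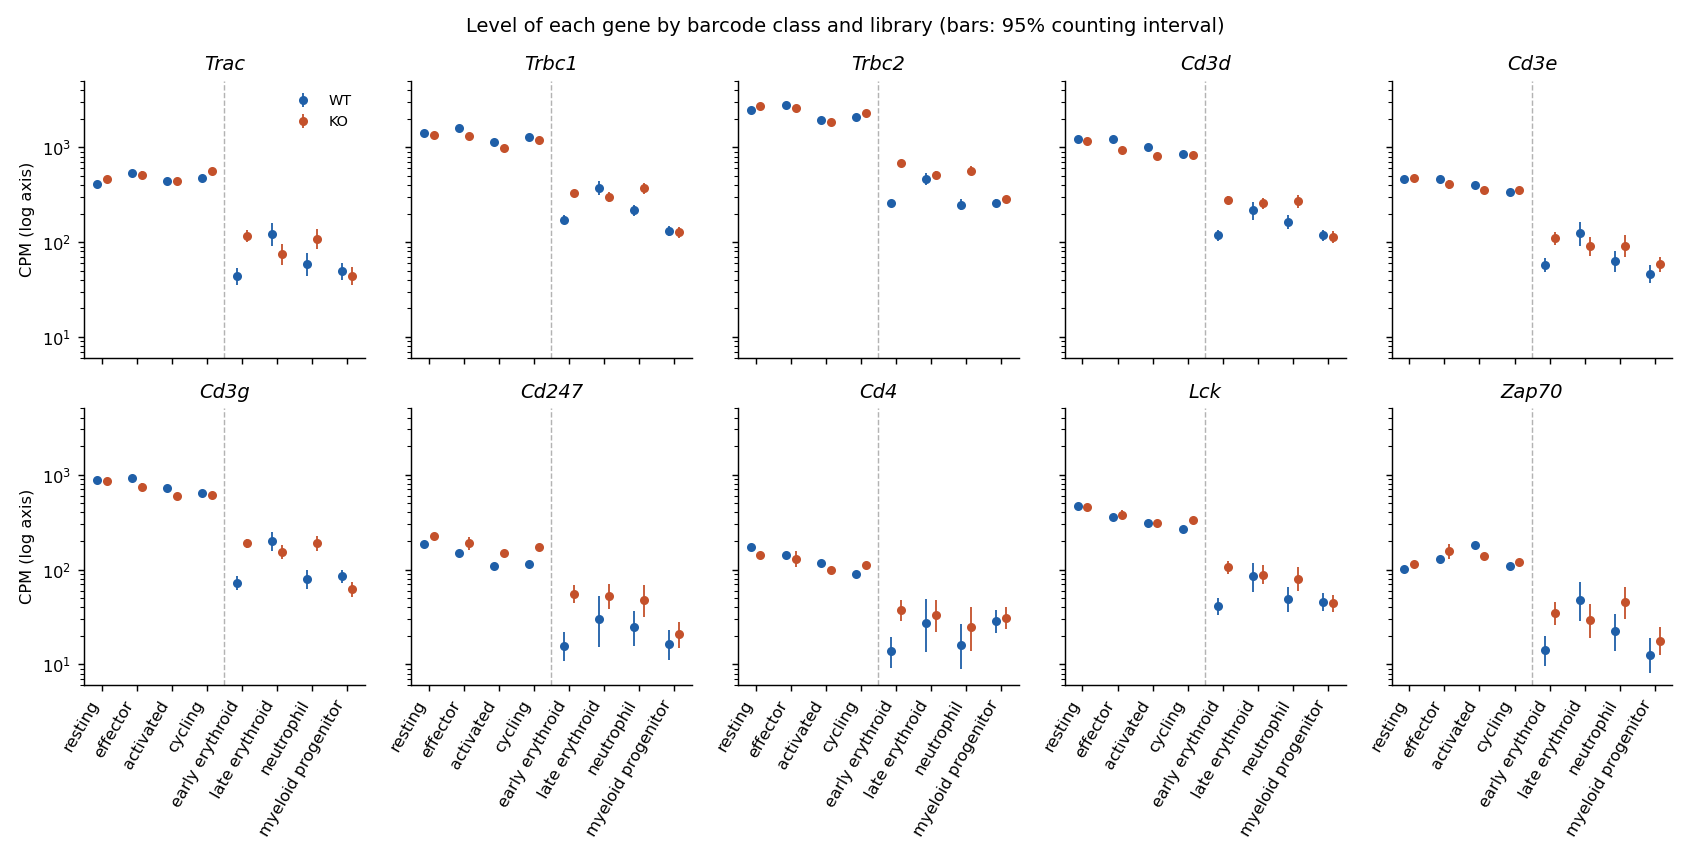
Each panel shows 1 gene, with CPM on a log axis against the 4 named T cell states and 4 other lineages (right of the dashed line) for the WT (blue) and KO (orange) libraries. Points are CPM of summed UMIs and bars their 95% counting intervals. Every gene lies lower in all 4 other lineages than in any T cell state of the same library.

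Trac, the constant part of the alpha chain, had its lowest WT level in resting barcodes. It was at 408 CPM (396 to 420) in resting, 444 CPM (428 to 460) in activated, 470 CPM (457 to 483) in cycling and 535 CPM (524 to 545) in effector WT barcodes. Of these neighbours, only the activated and cycling intervals overlapped. In KO, Trac was at 446 CPM (434 to 459) in activated, 467 CPM (458 to 477) in resting, 515 CPM (467 to 567) in effector and 562 CPM (548 to 576) in cycling barcodes, and every neighbouring pair overlapped. The cycling state was therefore above resting for the alpha chain in both libraries, unlike for most other members.

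The beta chain genes were highest in effector or resting barcodes and lowest in activated ones. Trbc1 in WT was at 1130 CPM (1106 to 1156) in activated, 1278 CPM (1256 to 1300) in cycling, 1424 CPM (1402 to 1446) in resting and 1590 CPM (1572 to 1608) in effector barcodes. In KO, Trbc1 was at 992 CPM (973 to 1011) in activated, 1187 CPM (1167 to 1207) in cycling, 1325 CPM (1247 to 1407) in effector and 1346 CPM (1330 to 1362) in resting barcodes. No neighbours overlapped in WT, and only effector and resting overlapped in KO. Trbc2 ran in the same order in each library, from 1927 CPM (1894 to 1960) in activated to 2806 CPM (2782 to 2830) in effector WT barcodes. In KO, Trbc2 ran from 1836 CPM (1810 to 1861) in activated to 2759 CPM (2736 to 2781) in resting barcodes, with no overlap between neighbours in either library.

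The CD3 chains Cd3d, Cd3e and Cd3g, which pair into the signalling dimers of the receptor, had like patterns. Cd3d in WT was at 851 CPM (833 to 869) in cycling, 1016 CPM (992 to 1040) in activated, 1222 CPM (1206 to 1238) in effector and 1230 CPM (1210 to 1250) in resting barcodes. In KO it was at 807 CPM (790 to 825) in activated, 829 CPM (813 to 847) in cycling, 942 CPM (877 to 1012) in effector and 1152 CPM (1138 to 1167) in resting barcodes. Effector and resting overlapped in WT, and activated and cycling in KO. Cd3g ranged from 642 CPM (627 to 658) in cycling to 911 CPM (898 to 925) in effector WT barcodes, and from 591 CPM (577 to 606) in activated to 848 CPM (836 to 861) in resting KO barcodes. Cd3e ranged from 341 CPM (330 to 352) in cycling to 467 CPM (455 to 480) in resting WT barcodes, and from 355 CPM (344 to 367) in cycling to 476 CPM (466 to 485) in resting KO barcodes. For all 3 chains the cycling and activated states were the lowest pair in both libraries.

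Cd247, which encodes the zeta chain with the most signalling motifs of the complex, varied more widely. In WT it was at 110 CPM (103 to 118) in activated, 114 CPM (107 to 120) in cycling, 150 CPM (144 to 155) in effector and 185 CPM (177 to 193) in resting barcodes. In KO it was at 148 CPM (141 to 155) in activated, 171 CPM (163 to 179) in cycling, 189 CPM (160 to 221) in effector and 224 CPM (217 to 230) in resting barcodes. The order of the states was the same in both libraries, and each KO level was above the WT level of the same state. Activated and cycling overlapped in WT, and in KO effector overlapped both of its neighbours.

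Cd4 and Lck, the coreceptor and the kinase bound to it, were highest in resting barcodes. Cd4 in WT was at 90.1 CPM (84.4 to 96.1) in cycling, 118 CPM (110 to 127) in activated, 143 CPM (137 to 148) in effector and 173 CPM (166 to 181) in resting barcodes. In KO, Cd4 was at 99.7 CPM (93.8 to 106) in activated, 112 CPM (106 to 118) in cycling, 130 CPM (107 to 157) in effector and 143 CPM (138 to 149) in resting barcodes. No WT neighbours overlapped, whereas in KO every neighbouring pair overlapped or touched. Lck in WT was at 265 CPM (255 to 275) in cycling, 307 CPM (294 to 321) in activated, 359 CPM (351 to 368) in effector and 469 CPM (457 to 482) in resting barcodes. In KO, Lck was at 307 CPM (297 to 318) in activated, 334 CPM (323 to 345) in cycling, 378 CPM (337 to 423) in effector and 454 CPM (445 to 464) in resting barcodes. Only the cycling and effector intervals of KO overlapped.

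Zap70, the kinase that docks on phosphorylated CD3 and zeta chains, ran the other way. In WT it was at 101 CPM (94.9 to 107) in resting, 110 CPM (104 to 117) in cycling, 128 CPM (123 to 133) in effector and 181 CPM (171 to 191) in activated barcodes. In KO it was at 115 CPM (110 to 119) in resting, 120 CPM (114 to 127) in cycling, 140 CPM (133 to 147) in activated and 156 CPM (130 to 185) in effector barcodes. The resting state was lowest in both libraries, its interval overlapping that of the cycling state, and activated and effector overlapped in KO.

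Within a library, each state was then set against resting barcodes, counting members past 1.5-fold beside the share of all genes with at least 200 UMIs past the same fold. In WT effector barcodes 0 members were higher and 0 lower, against 10.8% and 12.9% of all genes. Trac (ratio 1.31, 1.27 to 1.36), Zap70 (1.27, 1.18 to 1.36), Lck (0.766, 0.739 to 0.794) and Cd247 (0.811, 0.766 to 0.858) were farthest from 1. The median log2 ratio of the members was 0.03, beside -0.03 over all genes. In WT activated barcodes 1 member was higher, Zap70 at 1.79 (1.66 to 1.95), and 2 were lower, Cd247 at 0.597 (0.549 to 0.648) and Lck at 0.656 (0.623 to 0.689), against 18.6% and 23.3% of all genes. In KO activated barcodes 0 were higher and 2 lower, Cd247 at 0.661 (0.624 to 0.7) and Trbc2 at 0.665 (0.655 to 0.676), against 15.6% and 17.8%. Here Zap70 was at 1.22 (1.14 to 1.3). The members' median log2 ratio was -0.30 in WT and -0.52 in KO, beside -0.08 over all genes in each.

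In WT cycling barcodes 0 members were higher and 3 lower than in resting ones, against 19.6% and 25.5% of all genes. These were Cd4 at 0.52 (0.481 to 0.562), Lck at 0.566 (0.54 to 0.592) and Cd247 at 0.614 (0.572 to 0.66). In KO 0 were higher and 0 lower, against 15.8% and 12.7%, with Cd4 at 0.781 (0.731 to 0.835), Lck at 0.735 (0.707 to 0.763) and Cd247 at 0.763 (0.723 to 0.805). The members' median log2 ratio was -0.45 in WT and -0.37 in KO, beside -0.09 and -0.03 over all genes. Trac was above resting in both, at 1.15 (1.11 to 1.2) in WT and 1.2 (1.17 to 1.24) in KO. In no comparison was the share of members past the fold well above these backgrounds. It was near them for members below resting in KO activated barcodes (2 of 10 against 17.8%) and in WT cycling barcodes (3 of 10 against 25.5%). Activated and cycling barcodes were also deeper than resting ones, with medians of 8740 and 14485 UMIs against 3854 in WT and 7174 and 8393 against 3701 in KO. Per barcode the members were thus more abundant there, with 101 member UMIs in a WT cycling barcode on average and 31.8 in a WT resting barcode. The part of depth in these ratios was not tested.

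**Figure D2:**
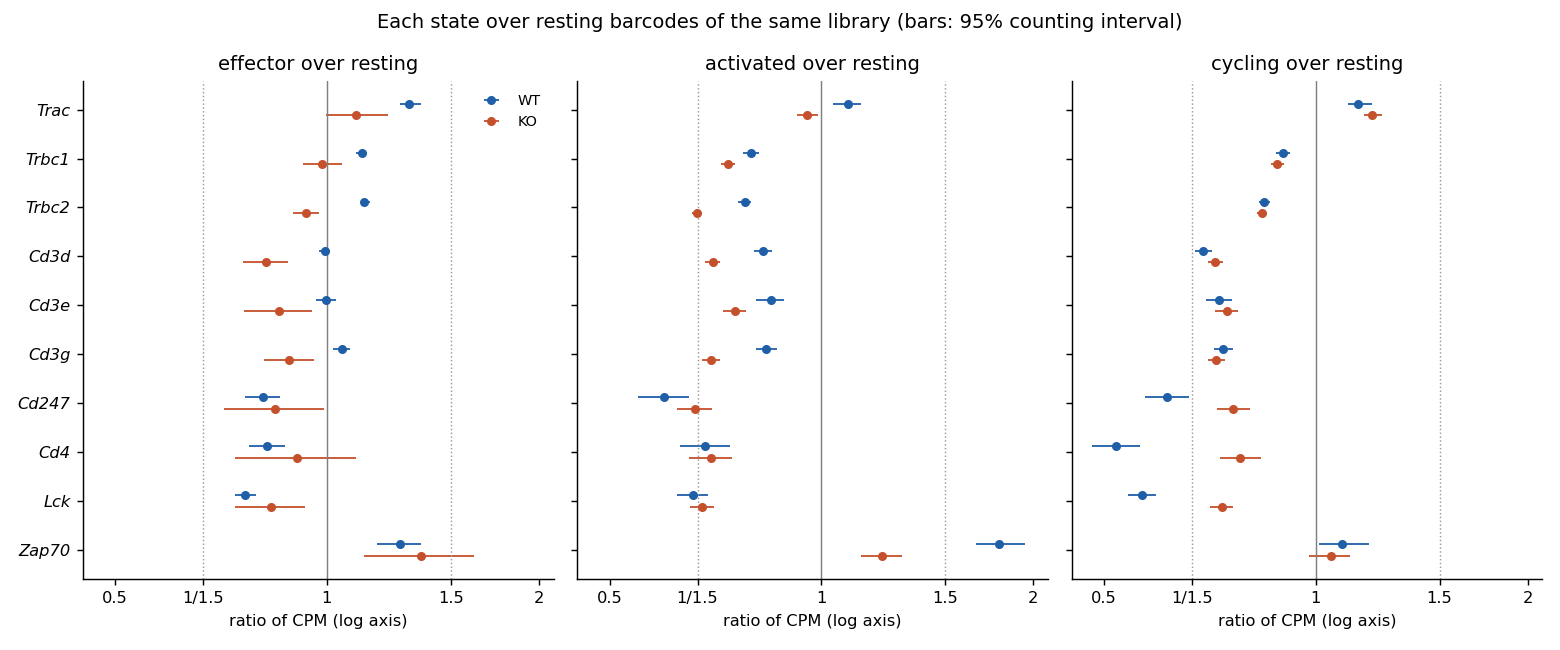
Ratio of CPM in effector, activated and cycling barcodes to resting barcodes of the same library, on a log axis, for WT (blue) and KO (orange), with 95% counting intervals and dotted lines at 1.5-fold. Zap70 lies to the right of 1 in every panel, whereas Lck, Cd4 and Cd247 lie to the left of 1.

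Over all T-lineage barcodes, no member differed by 1.5-fold between the genotypes, Cd247 was higher in KO, and Trbc1, the CD3 chains and Cd4 were lower. Cd3e and Cd4 were not lower in every named state, and Cd3g was not lower in the unnamed T clusters (KO to WT ratio 1.14, 1.04 to 1.24). Cd3e was at a KO to WT ratio of 1.02 (0.985 to 1.05) in resting and 1.04 (0.996 to 1.09) in cycling barcodes, and Cd4 at 1.24 (1.14 to 1.35) in cycling barcodes. Fewer cells of a kind and less RNA per cell cannot be told apart in such sums. Over all T-lineage barcodes 0 of the 10 were past 1.5-fold higher and 0 past 1.5-fold lower, against 4.24% and 9.22% of 10246 genes. The median log2 KO to WT ratio was -0.08, beside -0.06 over all genes. Cd247 was highest, at 186 CPM in KO and 145 CPM in WT (ratio 1.29, 1.25 to 1.33), and Trbc1 lowest, at 1211 and 1412 CPM (0.858, 0.848 to 0.867). Cd3d (0.878, 0.868 to 0.889), Cd3g (0.883, 0.871 to 0.896), Cd4 (0.9, 0.869 to 0.931) and Cd3e (0.934, 0.916 to 0.952) were below 1, as Trbc1 was. These 5 genes and Cd247 kept their sign in all 12 alternatives. Trbc2 (0.964, 0.956 to 0.972), Zap70 (0.988, 0.954 to 1.02), Trac (1.01, 0.989 to 1.03) and Lck (1.05, 1.03 to 1.08) lay nearest to 1 and changed sign in 2, 4, 1 and 2 of the 12 alternatives. The mix of states differed between the libraries, as did the shares of haemoglobin UMIs in T-lineage barcodes (0.0514% in WT, 0.325% in KO) and of neutrophil granule UMIs (0.0347% and 0.087%). With haemoglobin, granule and mitochondrial genes taken out of the total, the members' median log2 ratio was -0.07. With equal weight to resting, activated and cycling barcodes, a setting chosen after seeing the data, it was -0.02. The log2 ratio of Trbc1 then moved from -0.22 to -0.13, Cd3e from -0.10 to -0.02, Trbc2 from -0.05 to 0.08 and Cd247 from 0.37 to 0.43. The part of the state mix and of these UMIs in the ratios was not otherwise tested.

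In resting Treg-like barcodes, the state that both libraries held in number, 0 members were past 1.5-fold in either direction, against 1.80% of 8160 genes higher and 8.84% lower. The median log2 ratio was 0.00, beside -0.09 over all genes. Cd247 was at 224 CPM in KO and 185 CPM in WT (ratio 1.21, 1.15 to 1.28), Trac at 467 and 408 CPM (1.15, 1.11 to 1.19), Zap70 at 115 and 101 CPM (1.14, 1.06 to 1.22) and Trbc2 at 2759 and 2478 CPM (1.11, 1.1 to 1.13). Cd4 was at 143 CPM in KO and 173 CPM in WT (0.827, 0.781 to 0.875). The other 5 lay between 0.937 (Cd3d) and 1.02 (Cd3e). Scaled to the median gene in place of the total, Cd3g, Trbc1 and Lck changed sign here, and Lck did so in activated barcodes.

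In activated Treg-like barcodes 0 members were past 1.5-fold, against 3.09% of 6594 genes higher and 5.98% lower. Zap70 was at 140 CPM in KO and 181 CPM in WT (0.776, 0.719 to 0.837), Cd3d at 807 and 1016 CPM (0.795, 0.77 to 0.82), Cd3g at 591 and 725 CPM (0.815, 0.785 to 0.846) and Cd4 at 99.7 and 118 CPM (0.842, 0.768 to 0.924). Cd247 was again above WT, at 148 and 110 CPM (1.34, 1.23 to 1.47). The median log2 ratio was -0.17, beside -0.06 over all genes. In cycling T-like barcodes 1 member was past 1.5-fold higher and 0 lower, against 5.88% of 7160 genes higher and 6.01% lower. This was Cd247, at 171 CPM in KO and 114 CPM in WT (1.5, 1.4 to 1.62), and scaled to the median gene it was at 1.47. Lck was at 334 and 265 CPM (1.26, 1.2 to 1.32), Cd4 at 112 and 90.1 CPM (1.24, 1.14 to 1.35) and Trac at 562 and 470 CPM (1.2, 1.15 to 1.24). The median log2 ratio was 0.14, beside 0.03 over all genes.

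The few effector barcodes of KO gave wide intervals, with Cd247 at 1.26 (1.07 to 1.48) and Zap70 at 1.22 (1.01 to 1.46) above WT, and Cd3d at 0.771 (0.717 to 0.829), Cd3g at 0.823 (0.758 to 0.892) and Trbc1 at 0.833 (0.784 to 0.886) below. Of the members, Cd247 alone had a KO to WT ratio whose interval lay above 1 in all 4 named states. The interval of Trbc1 lay below 1 in all 4, although scaling to the median gene turned its sign in resting barcodes. In the unnamed T clusters the interval of Cd247 (1.12, 0.945 to 1.34) included 1. There Zap70 (1.31, 1.05 to 1.64), Trac (1.25, 1.12 to 1.41) and Cd3g (1.14, 1.04 to 1.24) were above 1. Trbc1 (0.918, 0.866 to 0.975) was below 1 there, and the intervals of the remaining members included 1.

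**Figure D3:**
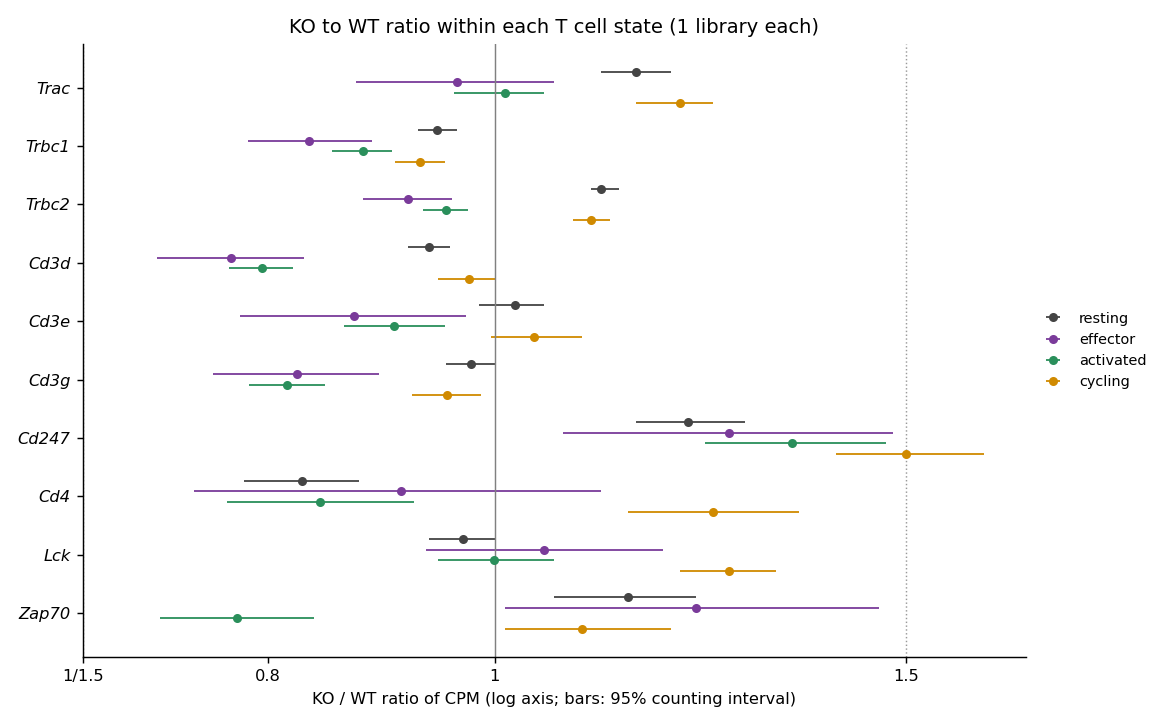
KO to WT ratio of CPM for each gene in resting (grey), effector (purple), activated (green) and cycling (ochre) barcodes, on a log axis, with 95% counting intervals. The dotted line marks 1.5-fold higher and the left edge 1.5-fold lower, and only Cd247 in cycling barcodes, at 1.5, reaches either. Cd4 lies below 1 in the other states and above it in cycling barcodes, and Zap70 lies below 1 in activated barcodes alone.

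The pathway around the receptor was read from lists of genes that pass the signal on and genes that restrain it. Of 25 positive regulators in T-lineage barcodes, 0 were past 1.5-fold higher in KO and 2 past it lower, against the 4.24% and 9.22% of all genes, with a median log2 ratio of -0.17. Lat, the adaptor that Zap70 phosphorylates, was highest at 464 CPM in KO and 314 CPM in WT (1.48, 1.45 to 1.51), followed by the adhesion receptor Cd2 at 893 and 676 CPM (1.32, 1.3 to 1.34). The adaptors Nck2 (0.536, 0.463 to 0.619) and Nck1 (0.635, 0.598 to 0.673) were lowest. Lat was also above WT in resting barcodes (1.42, 1.37 to 1.47), activated barcodes (1.4, 1.33 to 1.48) and cycling barcodes (1.53, 1.46 to 1.6). In resting barcodes 0 of 25 positive regulators were past the fold higher and 4 lower, against 1.80% and 8.84% of all genes. In activated barcodes 1 of 23 was higher and 0 lower, against 3.09% and 5.98%, and in cycling barcodes 3 of 23 were higher and 0 lower, against 5.88% and 6.01%. The one in activated barcodes was the membrane adaptor Trat1 (1.53, 1.27 to 1.84), and those in cycling barcodes were Lat, Cd2 (1.55, 1.5 to 1.6) and the kinase Txk (1.55, 1.39 to 1.74). Txk was below WT in resting barcodes (0.807, 0.761 to 0.856). Those past the fold lower in resting barcodes were Nck2 (0.551, 0.43 to 0.706), Themis (0.595, 0.523 to 0.676), Sos1 (0.653, 0.527 to 0.811) and Malt1 (0.654, 0.584 to 0.733). Trat1, Txk, Themis, Sos1 and Malt1 were named after their values had been seen.

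Of 20 symbols listed for negative regulators 19 were in the files. Of these 19 genes 0 were past 1.5-fold higher and 5 lower in KO T-lineage barcodes, against the same 4.24% and 9.22% of all genes, with a median log2 ratio of -0.34. In resting, activated and cycling barcodes 0 were higher and 7, 4 and 4 lower, against 8.84%, 5.98% and 6.01% of all genes lower. The phosphatase-like Ubash3b was lowest at 43.2 CPM in KO and 91.8 CPM in WT (0.47, 0.447 to 0.495), followed by the membrane adaptor Lax1 at 11.6 and 23.8 CPM (0.487, 0.44 to 0.537). The receptor Cd6 (1.28, 1.25 to 1.32) and the membrane adaptor Sit1 (1.2, 1.14 to 1.27) were highest. Ubash3b was also below WT in resting (0.662, 0.602 to 0.728), activated (0.488, 0.432 to 0.552) and cycling barcodes (0.489, 0.434 to 0.55). In WT it was itself higher in effector than in resting barcodes (1.64, 1.51 to 1.78), the state that KO nearly lacked, and the part of the state mix in the T-lineage ratio was not tested.

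Across states, 0 positive regulators were past 1.5-fold above resting in any of the 5 comparisons. In WT, 6 of 25 were past it below resting in effector barcodes (median log2 ratio -0.30), 14 of 25 in activated barcodes (-0.68) and 16 of 25 in cycling barcodes (-0.70), against 12.9%, 23.3% and 25.5% of all genes. In KO the counts were 12 of 24 in activated and 7 of 24 in cycling barcodes (-0.60 and -0.44), against 17.8% and 12.7%. Of 19 negative regulators, 3 were past the fold above resting and 2 below it in WT effector barcodes, against 10.8% and 12.9% of all genes. Those above were Ubash3b, Sla2 (1.59, 1.4 to 1.82) and Sla (1.51, 1.4 to 1.64), and those below were Cd6 (0.632, 0.603 to 0.663) and the lipid kinase Dgka (0.636, 0.603 to 0.67), of which Sla2, Sla and Dgka were named after their values had been seen. In activated and cycling barcodes 0 negative regulators were above. Below resting were 5 and 8 in WT, against 23.3% and 25.5% of all genes, and 5 and 1 in KO, against 17.8% and 12.7%, so that the count in KO cycling barcodes was under the background share.

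Chains of other receptors were scarce. In T-lineage barcodes the CD8 alpha gene Cd8a had 21 UMIs in WT and 34 in KO (0.433 and 0.648 CPM), and Ptcra, the surrogate alpha chain of thymic precursors, had 63 and 21 UMIs. Rag1 had 1 and 0 UMIs and Rag2 0 and 0. The gamma chain gene Tcrg-C1 was at 4.2 CPM in WT and 8.74 CPM in KO (ratio 2.08, 1.76 to 2.47), Tcrg-C2 at 1.42 and 2.97 CPM (2.09, 1.56 to 2.82) and Cd8b1 at 5.29 and 9.73 CPM (1.84, 1.58 to 2.14). Trdc, the delta chain gene, was at 8.82 and 3.71 CPM (0.421, 0.354 to 0.5). Of 9 such genes 4 reached 200 UMIs, 3 of them past 1.5-fold higher and 1 lower, against 4.24% and 9.22% of all genes. Chains and kinases with like roles in other leukocytes were also low. Of 8, 6 reached 200 UMIs and 3 were past 1.5-fold higher in KO and 2 lower, against the same 4.24% and 9.22% of all genes. The adaptor chains Tyrobp and Fcer1g were at 7.25 CPM in WT and 17.2 CPM in KO (2.37, 2.1 to 2.69) and at 6.2 and 11.7 CPM (1.88, 1.63 to 2.17). The kinase Lyn was at 3.56 and 1.52 CPM (0.428, 0.324 to 0.56) and the B cell receptor chain Cd79b at 22.8 and 14.5 CPM (0.637, 0.58 to 0.699). In resting, activated and cycling barcodes, only 1 of these 8 genes reached 200 UMIs each time. There 0 were past the fold higher, against 1.80%, 3.09% and 5.88% of all genes. Past it lower were 0, 1 and 0, against 8.84%, 5.98% and 6.01%. The part of the unnamed T clusters in these T-lineage ratios was not tested.

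Use of the beta chain genes was then followed barcode by barcode. Among T-lineage barcodes with at least 20 Trbc1 and Trbc2 UMIs together, 94.1% (93.3 to 94.9) of 3586 in WT and 93.3% (92.4 to 94.2) of 3072 in KO held UMIs of both. At least 90% of the UMIs were from Trbc2 in 23.9% (22.5 to 25.4) of these WT barcodes and 27.2% (25.6 to 28.8) of KO barcodes. At least 90% were from Trbc1 in 0.753% (0.497 to 1.09) and 0.618% (0.373 to 0.964). Most barcodes, 75.3% (73.9 to 76.7) in WT and 72.2% (70.5 to 73.7) in KO, lay between these bounds. The Trbc1 share of all these UMIs was 38% in WT and 35.4% in KO. By state, the share with at least 90% Trbc2 was 20.4% (17.8 to 23.3) in resting WT and 28.7% (26.5 to 30.9) in resting KO barcodes, intervals that did not overlap. In activated barcodes it was 23.6% (19.7 to 27.9) and 22.8% (19.6 to 26.3), and in cycling barcodes 25.9% (22.3 to 29.8) and 28.9% (25.6 to 32.4). Among the barcodes with the highest doublet scores 81.2% (72.2 to 88.3) of WT and 79.2% (72.6 to 84.9) of KO barcodes lay between, and among the other barcodes 75.2% and 71.7% did.

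With a lower minimum of 3 UMIs, both genes were seen in 88.9% (88.1 to 89.6) of 6666 WT and 84.9% (84.2 to 85.6) of 11608 KO T-lineage barcodes. In barcodes of other lineages, which do not express a beta chain, both were seen in 84.3% (76 to 90.6) of 108 early erythroid-like WT barcodes and 87.6% (82.4 to 91.6) of 217 KO ones with as many UMIs. Reads of the identical part of the genes, free RNA in the droplets, doublets and unproductive transcripts were not separated, and their part in the mixed barcodes was not tested.

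**Figure D4:**
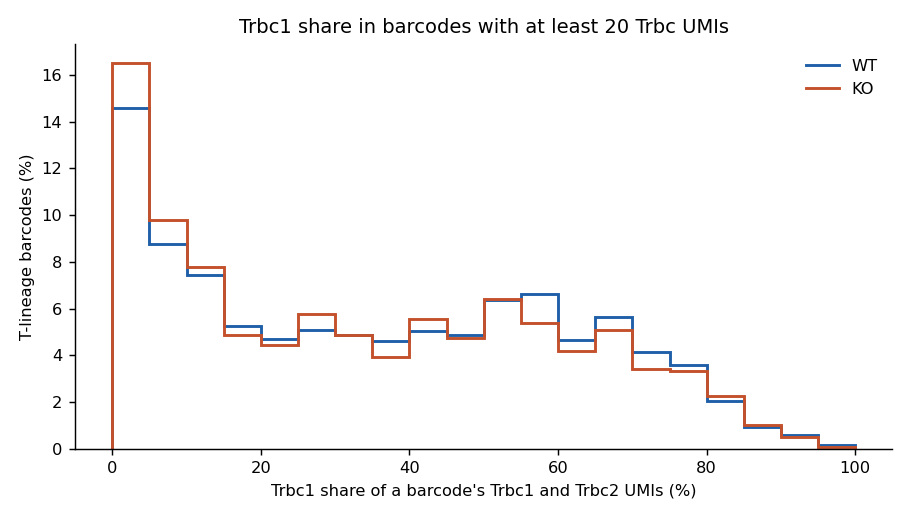
Histogram of the Trbc1 share (percent of a barcode's Trbc1 and Trbc2 UMIs, bins of 5 points) over T-lineage barcodes with at least 20 such UMIs, in percent of the barcodes of the WT (blue) and KO (orange) libraries. The lowest bin holds 14.6% of WT and 16.5% of KO barcodes, the remainder spread over a broad range, and the highest bin holds 0.167% and 0.0977%.

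How many barcodes showed each part of the complex depended on depth, so each barcode was thinned to 1000 UMIs and shallower ones were left out, which kept 2757 resting WT and 4862 resting KO barcodes. At least 1 of the 4 CD3 and zeta genes was then seen in 92.3% (91.3 to 93.3) of resting WT and 91.8% (91 to 92.5) of resting KO barcodes. The share was 86.7% (83.9 to 89.1) and 85.2% (83.2 to 87.2) in activated barcodes and 85.1% (82.1 to 87.8) and 85% (82.8 to 87.1) in cycling barcodes. Trac together with a beta chain gene was seen in 31.8% (30 to 33.5) of resting WT and 34.2% (32.9 to 35.6) of resting KO barcodes, and in 39.7% (37.7 to 41.8) of effector WT barcodes. Lck or Zap70 was seen in 44.7% (42.8 to 46.6) and 43.1% (41.7 to 44.5) of resting barcodes, and both kinases in 3.63% (2.96 to 4.39) and 4.01% (3.48 to 4.6). Unthinned, Cd4 had a UMI in 46.6% (44.8 to 48.4) of resting WT and 41.3% (39.9 to 42.7) of resting KO barcodes, and thinned in 15% (13.7 to 16.4) and 13.6% (12.6 to 14.6). The unthinned intervals did not overlap, whereas the thinned ones did, and the difference in the share of barcodes with Cd4 was not tested. In early erythroid-like barcodes, which should lack the CD3 genes, 35.7% (28.2 to 43.8) of WT and 60.7% (54.8 to 66.3) of KO barcodes held 1 or more of them after thinning, with unthinned median depths of 3816 and 2232 UMIs.

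Barcodes of other lineages gave the level at which the members were read where they should be absent. Summed over the 10 genes it was 808 CPM (771 to 846) in early erythroid-like WT barcodes and 1936 CPM (1868 to 2005) in those of KO, 940 CPM (879 to 1005) and 1796 CPM (1691 to 1905) in neutrophil-like barcodes, 1690 CPM (1565 to 1822) and 1593 CPM (1509 to 1681) in late erythroid-like barcodes, and 794 CPM (754 to 835) and 801 CPM (762 to 842) in myeloid progenitor-like barcodes. Relative to T-lineage barcodes of the same library these levels were 10.9% (10.4 to 11.4) and 27.9% (27 to 28.9) in early erythroid-like barcodes. In neutrophil-like barcodes they were 12.7% (11.8 to 13.5) and 25.9% (24.4 to 27.5), and in myeloid progenitor-like barcodes 10.7% (10.1 to 11.2) and 11.6% (11 to 12.1). A panel of 10 other T-lineage genes lay alike, at 9.9% (9.15 to 10.7) and 25.8% (24.4 to 27.3) in early erythroid-like barcodes. What part free RNA or doublets had in these levels was not tested.

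The make-up of the member UMIs in these lineages was set beside that of resting barcodes, and it was alike for some genes and apart for others. Trbc2 made up 31.8% (31.5 to 32.1) of member UMIs in resting WT barcodes and 31.9% (29.8 to 34.2) in early erythroid-like WT barcodes, and 34.5% (34.3 to 34.8) and 35.4% (33.7 to 37.1) in KO. Cd3d made up 15.8% (15.5 to 16) and 14.7% (13 to 16.4) in WT. Trbc1 made up 21.5% (19.6 to 23.5) in early erythroid-like WT barcodes against 18.2% (18 to 18.5) in resting ones, and Cd3g 8.95% (7.66 to 10.4) against 11.1% (10.9 to 11.3). In neutrophil-like WT barcodes Trbc2 made up 26.4% (23.5 to 29.4), below its resting share, and in myeloid progenitor-like KO barcodes Cd3g made up 7.79% (6.52 to 9.22) against 10.6% (10.5 to 10.8). In early and late erythroid-like KO barcodes every member's interval overlapped that of resting barcodes. As a level, Cd4 in myeloid progenitor-like barcodes was at 21.2% (15.9 to 27.6) of its T-lineage level in WT, on 54 UMIs, and 25.5% (19.5 to 32.8) in KO, on 61 UMIs. There the other 9 genes lay between 9.31% and 12.7% in WT and between 8.71% and 14.7% in KO. B cell-like barcodes (44 in WT, 30 in KO) and macrophage-like barcodes (40 and 7) were under 50 per library, with summed levels of 2107 and 2615 CPM and of 3986 and 6134 CPM.

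**Figure D5:**
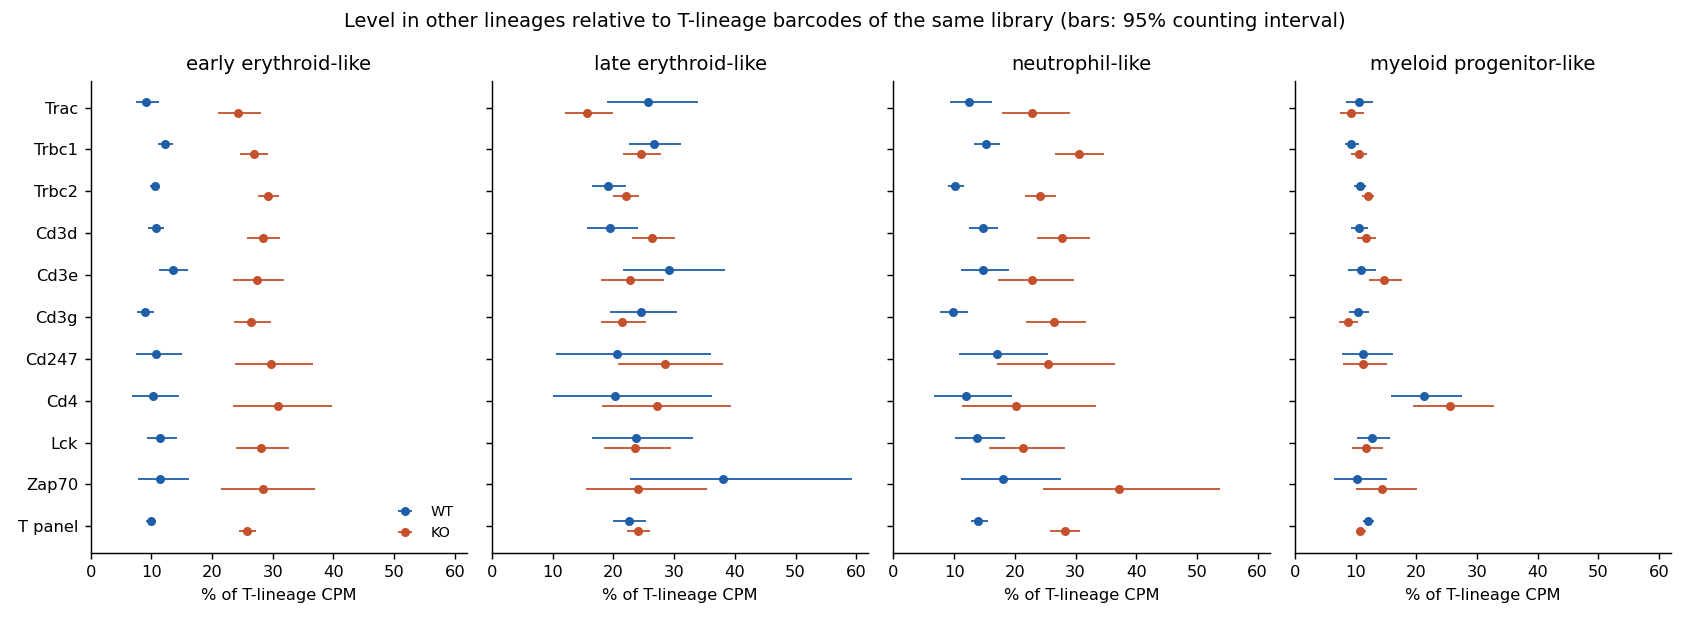
Level of each gene, and of the panel of 10 other T-lineage genes, in 4 other lineages as a percentage of its T-lineage CPM in the same library, for WT (blue) and KO (orange), with 95% counting intervals. Early erythroid-like and neutrophil-like barcodes sit higher in KO for every gene, and Cd4 in myeloid progenitor-like barcodes, at 21.2% and 25.5%, sits above the other genes.

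Over the 18 groups of class and library with at least 50 barcodes, which share 2 libraries and differ mainly between T and other lineages, each member followed the sum of the 10 (Pearson r of log2(CPM + 1) from 0.959 for Cd4 to 0.997 for Trbc2). Within the 8 T cell state groups the members parted. Trbc2 (r = 0.95, Spearman 0.95), Cd3g (0.93, 0.90), Trbc1 (0.91, 0.90) and Cd3e (0.90, 0.81) followed the sum, whereas Trac (0.16, 0.21) and Zap70 (-0.33, -0.24) did not. Each of these genes is itself part of the sum. From the lowest to the highest of the 8 groups, Cd247 spanned 2.03-fold, Cd4 1.92-fold, Zap70 1.79-fold and Lck 1.77-fold, and Trac 1.38-fold. Among 10583 other genes, those whose pattern over the 18 groups was most like the sum were Skap1 (r = 0.995), Gimap4 (0.994), Cd5 (0.990), Gimap7 (0.983) and Cd28 (0.981). Skap1 and Cd28 are among the T-lineage genes that set the lineage of each cluster, so their likeness was partly fixed in advance.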

How the data were processed

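Droplet single-cell RNA-Seq (10x Genomics V3 kit) had been run on sorted splenic YFP+ Tregs, 1 library per genotype. The authors mapped reads to mm10 with Cell Ranger 5.0.1 and deposited raw UMI counts per gene and barcode: 14524 WT barcodes with 64567991 UMIs and 18134 KO barcodes with 65480052. These counts were used as deposited. The members and gene lists were chosen with earlier results of these data known.

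Barcodes entered with 300 or more genes and a mitochondrial share of up to 5%. They were scaled to 10000 UMIs and log-transformed, and 2000 variable genes (members, mitochondrial, sex-linked and antigen receptor segment genes and Zfp335 left out) were reduced to 30 principal components (scikit-learn 1.9.0), joined over 20 neighbours and clustered by the Leiden method (igraph 0.11.9, resolution 0.5), without batch integration. A cluster with at least 50% of the largest cluster's CPM over 10 T-lineage genes (among them Bcl11b, Thy1, Ikzf2, Foxp3 and Tcf7) was T lineage. A state was named from the markers among a cluster's 10 leading genes (each in at least 10% of barcodes), with at least 3 markers raised 1.5-fold and no very shallow depth, or, where no listed marker led, by the markers' mean. Other lineages were named from their leading markers. This rule was settled after the data had been seen, and the study's own subset names were not rebuilt. Doublets were scored with Scrublet (scanpy 1.11.5). None was removed, and removing the top 5% of WT and 8% of KO barcodes was an alternative.

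UMIs were summed per class and library. CPM carry exact Poisson intervals, ratios exact conditional binomial intervals and shares Clopper-Pearson intervals (scipy 1.17.1). No test between genotypes was possible. The ratio code was tested on simulated counts. Genes named were all members, the 2 highest and 2 lowest KO to WT ratios of each pathway list among genes with at least 200 UMIs, and the 5 genes of most like pattern. The positive and T-lineage lists share genes, among them Lat, Skap1, Cd28 and Cd2. Results were recomputed under 10 other settings, and under 2 more chosen after seeing the data. Sequences came from RefSeq (GRCm38.p6) promoter windows and GENCODE vM21 transcripts.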

Additional observations from a re-analysis of the deposited data

Results flagged for a closer look

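For 3 genes the KO to WT ratio lay above 1 in 1 T cell state and below 1 in another, beyond counting error in each. With 1 library per genotype the difference between states was not tested. The log2 ratio of Trbc2 was larger by 0.22 in resting and by 0.21 in cycling than in activated barcodes, where it was -0.07 and came to -0.01 when scaled to the median gene. The log2 ratio of Cd4 was larger by 0.58 in cycling than in resting barcodes and by 0.56 than in activated barcodes. The log2 ratio of Zap70 was larger by 0.56 in resting and by 0.50 in cycling than in activated barcodes. Without the barcodes of highest doublet score, the log2 ratio of Cd4 was -0.29 in resting, -0.26 in activated and 0.34 in cycling barcodes, and that of Zap70 was 0.18, -0.38 and 0.16.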

How the results depend on the processing

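No paired analysis was possible because each genotype had 1 library, and for the same reason no replicate could be left out. The count of members past 1.5-fold between KO and WT in T-lineage barcodes was 0 in all 12 alternatives. The median log2 KO to WT ratio of the members in T-lineage barcodes (-0.08) was -0.06 with a 10% mitochondrial limit, -0.01 with median-of-ratios scaling, -0.10 as a mean of single-barcode CPM, -0.16 thinned to 1000 UMIs and -0.04 over all kept barcodes. In the alternatives chosen after seeing the data, it was -0.04 without the unnamed T clusters and -0.02 with equal weight to resting, activated and cycling barcodes. In resting barcodes (0.00) it was 0.06 at resolution 1, 0.08 with median-of-ratios scaling and 0.04 as a mean of single-barcode CPM. The effector to resting median in WT (0.03) was -0.11 with at least 500 genes per barcode and -0.12 at resolution 1, both with classes rebuilt, and 0.07 with median-of-ratios scaling, 0.17 as a mean of single-barcode CPM and 0.15 thinned. The causes were not tested. With genes of at least 1 UMI in the background, 15.7% were past 1.5-fold higher and 23% lower in KO.

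Depth limits the rarest values. In KO, effector barcodes numbered 107. The interval of the KO to WT ratio there was, for example, 1.01 to 1.46 for Zap70 and 0.744 to 1.11 for Cd4. Counting intervals say nothing of the spread between mice, which 1 library per genotype cannot show.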

Other observations

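Barcodes left out for a mitochondrial share above 5% (6468 in WT and 4364 in KO, each with at least 300 genes) still held the members, at a summed level of 5572 CPM (5526 to 5617) in WT and 6192 CPM (6137 to 6247) in KO.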
